A study of Homo sapiens with 18 samples.

Results

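The progesterone receptor gene, PGR, is described here through the accessibility of its locus in T47D, an established cell line from a human breast carcinoma. The locus was taken as every region of the deposited count table that overlaps chromosome 11 between 100.80 and 101.15 Mb in the hg19 build, with PGR itself placed at 100.900 to 101.001 Mb. This rule gave 42 of the 132604 regions in the table, and all 42 passed the filter on low counts. The regions were chosen by position alone, with no measured value in the rule, but the region list itself was drawn from peaks of this series. Omni-ATAC-seq, an assay in which the Tn5 transposase cuts open DNA and tags it for sequencing, was applied to cells of 6 groups with 3 libraries each. The groups were 10 nM R5020, 0.1 nM R5020 and vehicle at 6 h, and the same treatments at 18 h. R5020 is promegestone, a synthetic progestin. All groups are of this single cell line, carry no engineered change according to the labels, and were kept without serum before treatment, vehicle cells included. Whether libraries of the same group are separate cultures is not stated, so p-values measure only their spread, which may be technical.

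The progesterone receptor is a nuclear receptor that binds a progestin in the cell, dimerises, and attaches to hormone response elements in open chromatin, where it raises or lowers transcription. Its gene is transcribed from more than 1 promoter, which gives the long B form and the shorter A form, and in breast cells it is a classical target of the oestrogen receptor. T47D cells are known for a high receptor level, and progestin exposure is known to lower receptor protein and mRNA in such cells. The questions addressed at this locus are which regions responded to the dose, and whether the response differed between times. PGR lies on the minus strand, so a region is called here by the distance of its midpoint from the upstream end of the gene at 101.001 Mb, positive into the gene and beyond its downstream end, negative upstream. The gene ends are known here only to the nearest 1 kb, and exons and introns of hg19 were not analysed here.

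The promoter sequences of PGR are shown because the strongest region of the locus covers the start side of the gene. RefSeq windows of the GRCh38.p14 build, each holding 250 bases before and 50 bases after a start, include 3 for PGR on the minus strand of chromosome 11. These coordinates are of another build than the counts and were not placed on the measured regions. The windows of the downstream starts overlap, shifted by 14 bp, so 1 of them is left out, and the others are printed 5′ to 3′ in lower case. Capitals mark GGGCGG, the GC box, and GGTCA, 1 arm of the oestrogen response element, on either strand.
Upstream start, chr11:101129764-101130063: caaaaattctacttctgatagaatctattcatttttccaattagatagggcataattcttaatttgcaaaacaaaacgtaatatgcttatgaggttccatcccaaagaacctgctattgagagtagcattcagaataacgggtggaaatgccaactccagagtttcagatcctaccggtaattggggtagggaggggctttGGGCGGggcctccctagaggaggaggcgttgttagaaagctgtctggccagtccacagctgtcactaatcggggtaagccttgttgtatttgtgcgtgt
Downstream start, chr11:101129028-101129327: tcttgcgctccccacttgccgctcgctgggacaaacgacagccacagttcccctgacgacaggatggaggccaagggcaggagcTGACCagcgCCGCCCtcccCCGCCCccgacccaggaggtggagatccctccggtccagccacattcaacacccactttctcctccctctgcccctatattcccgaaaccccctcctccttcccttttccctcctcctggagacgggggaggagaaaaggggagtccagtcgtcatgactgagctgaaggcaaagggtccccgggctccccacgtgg
The upstream window holds 1 GC box at bases 202 to 207, counted from its 5′ end, and its GC content is 44.3%. The downstream window holds GGTCA at bases 85 to 89 and GC boxes at bases 94 to 99 and 104 to 109, and its GC content is 64.3%, against a median of 58.7% over all 35116 RefSeq promoter windows. A GC box occurs in 45% of those windows and GGTCA in 37.4%, so neither is rare. Both of these motifs were chosen after the sequences were seen. Of the motifs listed at the outset, none matched a PGR window on either strand. These were the hormone response element shared by the steroid receptors (in 0.39% of all windows), its arm AGAACA (14.8%), the full palindromic oestrogen response element (0.057%), the forkhead motif TGTTTAC (3.42%), the GATA motif AGATAA (10.3%) and the AP-1 motif TGANTCA (7.71%). A match or its absence describes only the letters of these windows.

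Library totals ran from 8756311 to 39984217 counts in regions. Levels are given as CPM, counts of a region relative to the library size scaled by TMM, and differences as log2 fold changes from edgeR's quasi-likelihood test over all 132304 tested regions. A call means that p, after Benjamini-Hochberg adjustment within a comparison, was under 0.05. The 5000 strongest regions of the table held 33.4% to 34.6% of counts in the 10 nM, 36.7% to 39.1% in the 0.1 nM and 37.1% to 41.6% in the vehicle libraries at 6 h. At 18 h they held 31.1% to 37.2% with 10 nM, 33.4% to 39.4% with 0.1 nM and 36.2% to 39.9% with vehicle. Replicate 1 of vehicle at 6 h and replicate 1 of 10 nM at 18 h lay apart from the other libraries of their groups on the leading principal components of log2 CPM. The counts of falls for 10 nM at both times and for 0.1 nM at 18 h are given with and without both.

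The 42 regions had a median width of 396.5 bp, between 144 and 2811 bp. By midpoint, 23 lay inside the gene, 8 upstream of its start and 11 downstream of its end. The widest, at +1.8 kb, spans 100997832 to 101000643 and is called the promoter region here. It is the region nearest to the upstream end of the gene, which is known only to the nearest 1 kb. Whether it covers the start is not known, since its gap of 357 bp to that end is smaller than the rounding. Its level per length averaged 31.97 CPM per kb over the 18 libraries, against 2.978 to 11.32 CPM per kb in the 41 other regions. In vehicle it was stronger per length than 95.9% of all regions in the table. It held 48.5%, 49.4% and 49.7% of the counts of the locus on average with 10 nM, 0.1 nM and vehicle at 6 h, and 38.9%, 44.2% and 50.6% at 18 h.

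With 10 nM R5020, 10 of the 23 regions inside PGR fell and 2 rose against vehicle at 6 h, and 6 fell and 3 rose at 18 h, where 8.42% of all tested regions fell and 16.7% rose at 6 h, and 7.56% and 12.8% at 18 h. The other regions inside the gene did not pass the test. Summed over the locus, the level was 173.7 ± 3.14 CPM with 10 nM and 185.1 ± 8.56 CPM with 0.1 nM, against 252.1 ± 49.0 CPM with vehicle at 6 h (SD, n = 3 each). At 18 h it was 151.5 ± 13.5 CPM with 10 nM and 152.4 ± 15.8 CPM with 0.1 nM, against 217.9 ± 17.4 CPM with vehicle. The 22 regions inside the gene other than the promoter region summed to 53.4 ± 2.96 CPM with 10 nM and 55.6 ± 1.05 CPM with 0.1 nM, against 78.2 ± 17 CPM with vehicle at 6 h. At 18 h these sums were 54.0 ± 1.82 CPM, 51.0 ± 5.02 CPM and 67.9 ± 1.98 CPM in the same groups.

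**Figure D1:**
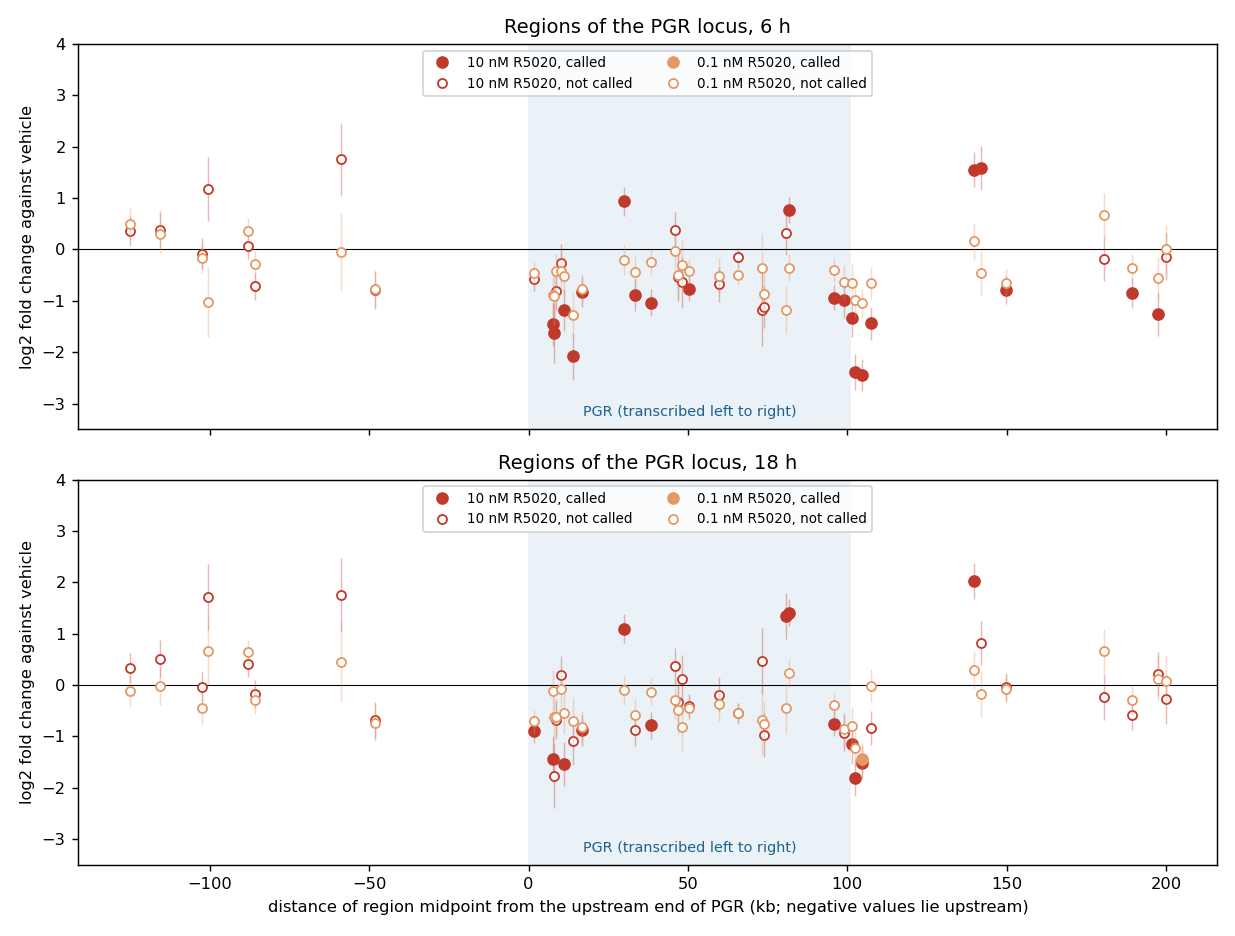
Log2 fold change against vehicle (vertical axis) of the 42 regions by distance of the midpoint from the upstream end of PGR in kb (horizontal axis), for 10 nM and 0.1 nM R5020 at 6 h (top) and 18 h (bottom). Bars are standard errors, filled points are regions called at an edgeR adjusted p under 0.05, and shading marks the gene. Called 10 nM points below 0 lie at +7.7 to +16.7 kb and +95.9 to +107.6 kb among other places, called points above 0 lie at +29.8, +81.8 and +139.8 kb at both times, and no called point lies upstream of the gene.

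The promoter region was less accessible with 10 nM at 18 h. It had 77.1, 55.6 and 45.6 CPM with 10 nM and 77.2, 74.8 and 51.3 CPM with 0.1 nM, against 125, 114 and 92.9 CPM with vehicle. In the same order, library totals were 39984217, 10845301 and 8756311 counts with 10 nM and 30593974, 14072153 and 8865035 with 0.1 nM. With vehicle they were 25588387, 19991414 and 15735470. Within each 18 h group the level fell with the total, which the vehicle libraries at 6 h did not show. A part of depth in the difference was not tested. Every R5020 library at 18 h lay below every vehicle library. The 10 nM level was 1.86-fold lower than vehicle (log2 fold change -0.89, SE 0.23, edgeR adjusted p = 0.00923). The 0.1 nM difference of -0.71 (SE 0.23) was not called (edgeR adjusted p = 0.147). The call at 10 nM was lost without replicate 3 of 10 nM (-0.71, edgeR adjusted p = 0.0565), without replicate 1 of vehicle (-0.79, edgeR adjusted p = 0.0515) and when only the 18 h groups compared entered the fit (edgeR adjusted p = 0.0742).

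At 6 h the promoter region had 85.5, 82.2 and 84.8 CPM with 10 nM and 94.8, 84.8 and 95 CPM with 0.1 nM, against 155, 124 and 98.5 CPM with vehicle. Here too no R5020 library reached the lowest vehicle library, but the vehicle libraries spread widely. Neither dose was called, with -0.58 for 10 nM (SE 0.23, edgeR adjusted p = 0.0765) and -0.46 for 0.1 nM (SE 0.23, edgeR adjusted p = 0.619). The 10 nM difference was called without replicate 3 of vehicle (-0.73, edgeR adjusted p = 0.0365). That was the only call among the 6 fits that left out 1 library, in which the values ran from -0.73 to -0.37. The doses differed from each other by -0.12 at 6 h (95% interval -0.63 to 0.39) and -0.19 at 18 h (-0.70 to 0.32), neither of them called, with edgeR adjusted p of 0.776 and 0.749.

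Promoter CPM was lowest in the library with the lowest percentage of counts in the 5000 strongest regions, and highest in the one with the highest. Libraries of like percentage differed by unlike amounts. Replicate 1 of 0.1 nM at 18 h had 77.2 CPM at 39.4%, and replicate 1 of vehicle at 18 h had 125 CPM at 39.9%. Closer together were replicate 2 of 0.1 nM (74.8 CPM, 36.7%) and replicate 3 of vehicle (92.9 CPM, 36.2%) at 18 h. At 6 h, replicate 2 of 0.1 nM had 84.8 CPM at 36.7%, and replicate 3 of vehicle had 98.5 CPM at 37.1%. These pairs were picked after the values were seen. The promoter region is itself a strong region, with a higher CPM in vehicle than 99.61% of tested regions. The median of those 5000 regions was -0.35 for 10 nM at 6 h and -0.39 at 18 h, against -0.05 and 0.01 over all tested regions. With that percentage added to the fit, the promoter difference for 10 nM was -0.42 at 18 h (edgeR adjusted p = 0.00429) and turned to 0.015 at 6 h (edgeR adjusted p = 0.929). For 0.1 nM it was -0.53 at 18 h (edgeR adjusted p = 0.000319) and -0.32 at 6 h (edgeR adjusted p = 0.0363). The groups themselves differ in this percentage, so a fit with it also takes up part of any difference between groups.

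**Figure D2:**
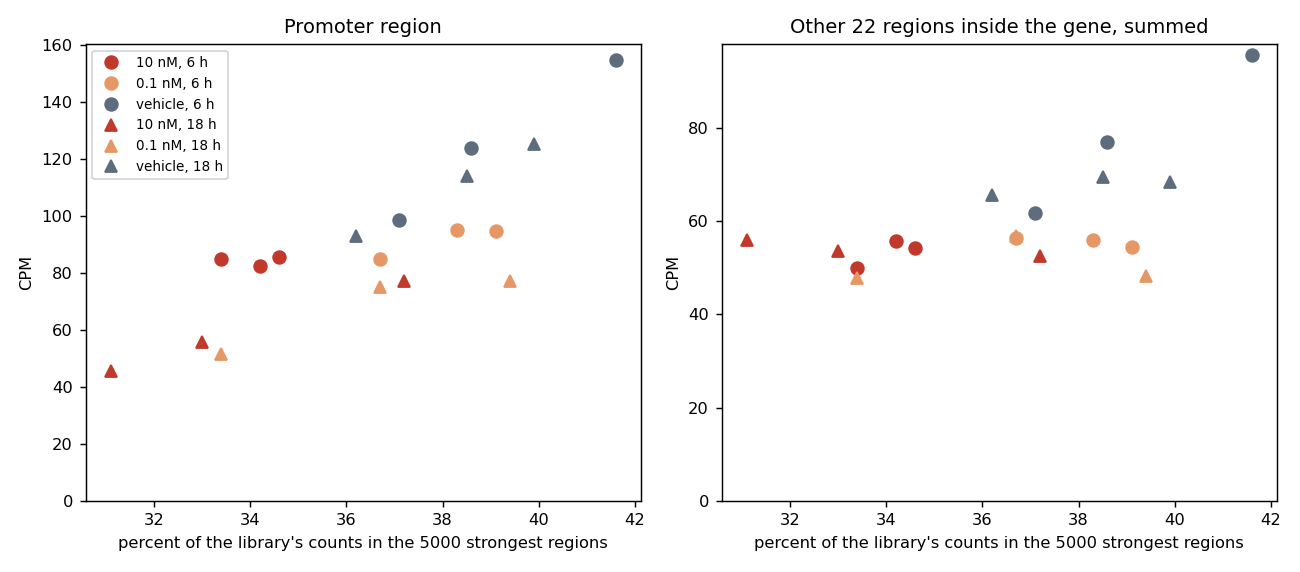
CPM of the promoter region (left) and summed CPM of the 22 other regions inside the gene (right) in each of the 18 libraries, against the percentage of that library's counts in the 5000 strongest regions of the table. Circles are 6 h and triangles 18 h. Promoter CPM is lowest, at 45.6, in the library with the lowest percentage (31.1%), and highest, at 155, in the library with the highest (41.6%). Libraries of like percentage differ by unlike amounts. At 18 h, replicate 1 of 0.1 nM (77.2 CPM, 39.4%) and of vehicle (125 CPM, 39.9%) lie far apart. Replicate 2 of 0.1 nM (74.8 CPM, 36.7%) and replicate 3 of vehicle (92.9 CPM, 36.2%) lie closer together.

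The falls with 10 nM at 6 h were called at 17 of 42 regions, or 40.5%, where 8.42% of all tested regions were called lower. Rises were called at 4 of 42, or 9.52%, where 16.7% of all tested regions were called higher. The called falls were between 1.70-fold and 5.46-fold, and 23 regions had every 10 nM library below every vehicle library, a separation seen at 20.4% of all tested regions. In 7 regions every 10 nM library lay above, against 24.3% of all tested regions. Inside the gene 10 regions were called lower and 2 higher, downstream 7 lower and 2 higher, and none of the 8 upstream regions was called. The median log2 fold change was -0.74 over the 42 regions and -0.81 inside the gene, against -0.05 over all tested regions. With the percentage of counts in the 5000 strongest regions added to the fit, the median of the 42 was -0.36 and that of all tested regions 0.03. The number of falls depended on single libraries: it was 7 without any 1 of the 10 nM replicates, 5 without vehicle replicate 1, 7 without vehicle replicate 2, and 9 without both libraries that lay apart. All 17 kept a value below 0 in each of these fits that left out 1 library, and 4 of them kept their call in all 6.

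Those 4 are at +13.9, +102.5, +104.6 and +107.6 kb, and 3 of them lie together within 7 kb beyond the downstream end of PGR. The region at +104.6 kb, at 100896049 to 100896786, had 0.843, 1.43 and 1.20 CPM with 10 nM and 3.07, 3.40 and 2.75 CPM with 0.1 nM, against 8.4, 5.78 and 5.02 CPM with vehicle at 6 h. The 3 groups did not overlap, with 10 nM lowest and 0.1 nM between. The fall with 10 nM was 5.46-fold (log2 fold change -2.45, SE 0.31, edgeR adjusted p = 6.74e-06).

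The region at +102.5 kb, at 100898187 to 100898738, showed the same order of groups at 6 h. It had 0.984, 0.401 and 0.790 CPM with 10 nM and 2.19, 1.85 and 1.72 CPM with 0.1 nM, against 4.73, 4.01 and 2.75 CPM with vehicle. The fall with 10 nM was 5.23-fold (log2 fold change -2.39, SE 0.35, edgeR adjusted p = 3.44e-05). The region at +107.6 kb, at 100893125 to 100893604, fell 2.71-fold with 10 nM (-1.44, SE 0.32, edgeR adjusted p = 0.00199). It averaged 1.17 ± 0.0403 CPM with 10 nM and 2.00 ± 0.483 CPM with 0.1 nM, against 3.17 ± 0.574 CPM with vehicle (SD, n = 3 each). All 6 regions from +95.9 to +107.6 kb were called lower with 10 nM at 6 h, between -2.45 and -0.94, a stretch picked out after the values were seen.

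On the start side of the gene, 5 of the 7 regions from +7.7 to +16.7 kb were called lower with 10 nM at 6 h, also a stretch chosen after its values were seen. The deepest fall was at +13.9 kb, at 100986916 to 100987308, with 0.937, 0.579 and 0.995 CPM with 10 nM and 1.45, 1.79 and 1.21 CPM with 0.1 nM, against 6.30, 2.43 and 2.27 CPM with vehicle. Vehicle replicate 1 was far above the other vehicle libraries there, and the groups did not overlap without it either. The fall with 10 nM was 4.23-fold (-2.08, SE 0.46, edgeR adjusted p = 0.00205). At +11.2 kb, at 100989745 to 100989941, the levels were 1.12, 0.979 and 0.966 CPM with 10 nM and 2.04, 0.954 and 1.80 CPM with 0.1 nM, against 2.52, 2.54 and 1.86 CPM with vehicle. The 10 nM libraries lay below all vehicle libraries, while those of 0.1 nM overlapped with both groups (10 nM against vehicle -1.18, SE 0.40, edgeR adjusted p = 0.0368, kept in 1 of 6 fits that left out a library).

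After the promoter region, the highest level over all libraries, also per length, was inside the gene at +38.5 kb, at 100962220 to 100962837. This region had 4.78, 4.72 and 3.83 CPM with 10 nM and 7.80, 6.56 and 8.58 CPM with 0.1 nM, against 11.4, 9.58 and 6.31 CPM with vehicle at 6 h. The 10 nM libraries were below all others, and those of 0.1 nM and vehicle overlapped. The fall with 10 nM was 2.05-fold (-1.04, SE 0.27, edgeR adjusted p = 0.00633) and kept its call in 4 of 6 fits that left out a library. At 18 h this region fell 1.72-fold with 10 nM (-0.78, SE 0.27, edgeR adjusted p = 0.042), with the call kept in 2 of 6 such fits. The +65.8 kb region, at 100934444 to 100935938, is next by CPM and was not called in any comparison. It had 7.68, 8.01 and 8.49 CPM with 10 nM and 6.47, 6.26 and 6.27 CPM with 0.1 nM, against 10.7, 8.62 and 7.69 CPM with vehicle at 6 h. At 18 h it had 4.07, 5.15 and 4.75 CPM with 10 nM and 4.19, 3.87 and 5.93 CPM with 0.1 nM, against 6.73, 6.58 and 6.96 CPM with vehicle (10 nM -0.55, edgeR adjusted p = 0.0513).

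The rises with 10 nM at 6 h were at +29.8 and +81.8 kb inside the gene and at +139.8 and +142.1 kb beyond its downstream end. The region at +139.8 kb, at 100860875 to 100861530, had 4.87, 3.25 and 4.04 CPM with 10 nM and 2.04, 1.73 and 0.843 CPM with 0.1 nM, against 1.68, 1.55 and 0.890 CPM with vehicle. The 10 nM libraries stood above all others, and 0.1 nM and vehicle overlapped. The rise with 10 nM was 2.93-fold (log2 fold change 1.55, SE 0.35, edgeR adjusted p = 0.00217). The region at +142.1 kb, at 100858802 to 100859049, had 2.95, 2.58 and 3.34 CPM with 10 nM and 0.739, 0.298 and 1.03 CPM with 0.1 nM, against 0.630, 0.921 and 1.38 CPM with vehicle. Its rise was 3-fold (1.59, SE 0.42, edgeR adjusted p = 0.00825), again with no overlap between 10 nM and the other groups, and was not called with the percentage of counts in the strongest regions added to the fit (1.06, edgeR adjusted p = 0.0915).

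Inside the gene, the region at +29.8 kb, at 100970876 to 100971524, had 4.5, 5.12 and 4.36 CPM with 10 nM and 2.19, 2.27 and 1.91 CPM with 0.1 nM, against 2.52, 1.88 and 3 CPM with vehicle at 6 h. The region at +81.8 kb, at 100918896 to 100919478, had 4.83, 4.36 and 4.42 CPM with 10 nM and 1.80, 2.45 and 2.05 CPM with 0.1 nM, against 2.21, 3.42 and 2.19 CPM with vehicle. Both had every 10 nM library above every other library at 6 h. The rises were 1.92-fold at +29.8 kb (0.94, SE 0.29, edgeR adjusted p = 0.0193) and 1.70-fold at +81.8 kb (0.77, SE 0.26, edgeR adjusted p = 0.0342). The first of these calls was lost without replicate 2 of 10 nM (edgeR adjusted p = 0.0529) or of vehicle (edgeR adjusted p = 0.109), and the second kept its call in 2 of 6 such fits. The 2 regions beyond the end kept theirs in all 6.

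**Figure D3:**
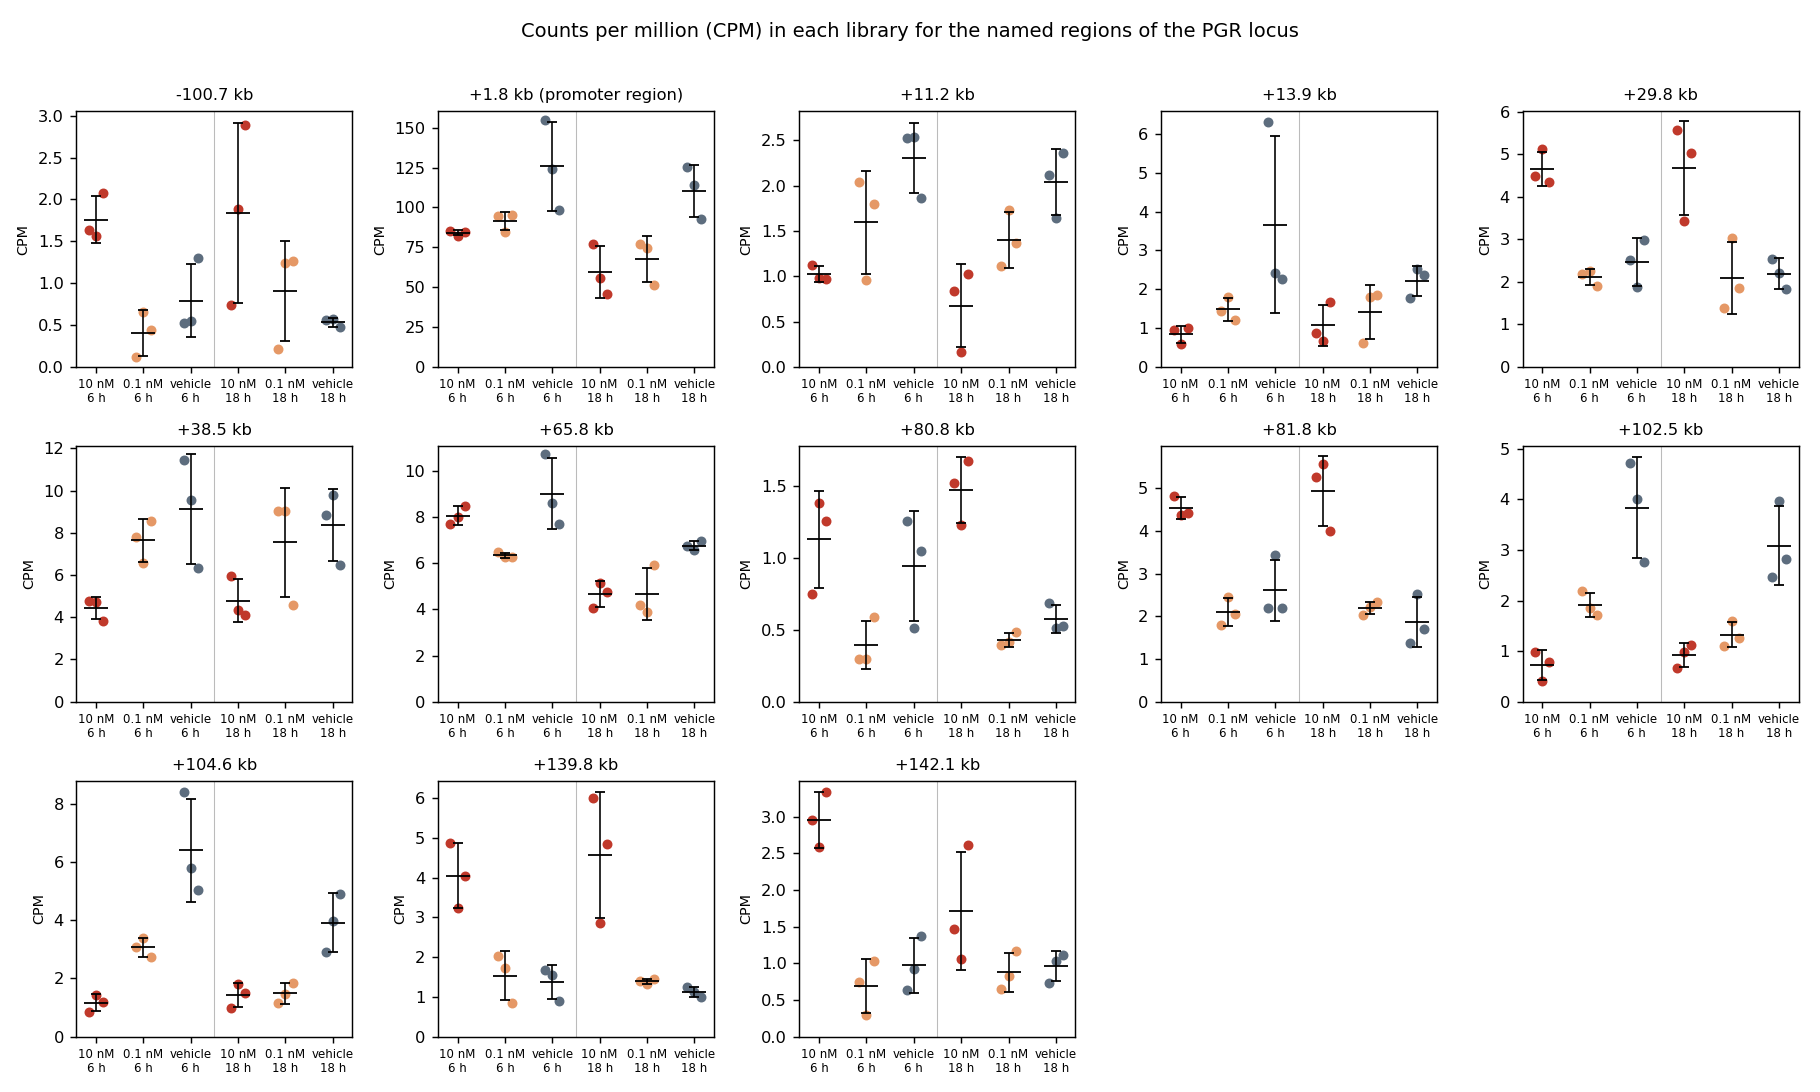
CPM (vertical axes, each from 0) in each library of the 13 named regions, for 10 nM R5020, 0.1 nM R5020 and vehicle at 6 h and at 18 h. Points are libraries, horizontal bars are means and whiskers are 1 SD (n = 3). The regions at +102.5 and +104.6 kb are lower with 10 nM than with vehicle at both times, and the region at +139.8 kb is higher.

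After 18 h of 10 nM, 9 of 42 regions were called lower, where 7.56% of all tested regions were, and 4 were called higher, where 12.8% of all tested regions were. In 16 regions every 10 nM library lay below every vehicle library, and in 7 above, where 13.9% and 19.4% of all tested regions separated in those directions. Of the 17 regions called lower at 6 h, 8 were called lower at 18 h as well, which is 47.1% of the 6 h calls and 88.9% of the 18 h calls, and 16 of the 17 had a value below 0 at 18 h. Of all tested regions called lower at 6 h, 58.3% were called lower at 18 h. Of the 4 rises at 6 h, 3 were called at 18 h, or 75%, against 60.8% of all tested regions called higher at 6 h. The libraries of the 2 times are separate. The median of the 42 at 18 h was -0.31, with 27 values below 0, against 0.01 and 49.5% below 0 over all tested regions. With library totals in place of TMM these medians were -0.16 for the 42 and 0.17 for all tested regions. The number of falls at 18 h was 4 without replicate 2 of 10 nM, 4 without replicate 1 or replicate 2 of vehicle, 8 without both libraries that lay apart, and 2 when only the groups compared were fitted.

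Of the 6 regions from +95.9 to +107.6 kb, 4 were called lower with 10 nM at 18 h. The +107.6 kb region was not among them (-0.84, SE 0.34, edgeR adjusted p = 0.0885), nor was it called in any fit that left out a library. It averaged 1.02 ± 0.367 CPM with 10 nM and 1.68 ± 0.322 CPM with 0.1 nM, against 1.71 ± 0.306 CPM with vehicle (SD, n = 3 each), and its vehicle mean at 18 h lay below the 3.17 CPM of vehicle at 6 h without passing the test (-0.88, edgeR adjusted p = 0.999). At +104.6 kb the levels were 0.972, 1.80 and 1.49 CPM with 10 nM and 1.15, 1.45 and 1.85 CPM with 0.1 nM, against 2.89, 3.96 and 4.89 CPM with vehicle. Both doses lay below all vehicle libraries and overlapped with each other. The fall with 10 nM was 2.85-fold (-1.51, SE 0.31, edgeR adjusted p = 0.00154). At +102.5 kb the levels were 0.657, 0.981 and 1.12 CPM with 10 nM and 1.11, 1.59 and 1.26 CPM with 0.1 nM, against 2.46, 3.96 and 2.83 CPM with vehicle. The fall with 10 nM was 3.49-fold (-1.80, SE 0.35, edgeR adjusted p = 0.000918). The +11.2 kb region fell 2.92-fold (-1.54, SE 0.43, edgeR adjusted p = 0.0128), with 0.841, 0.164 and 1.02 CPM with 10 nM and 1.11, 1.73 and 1.36 CPM with 0.1 nM, against 2.11, 1.65 and 2.36 CPM with vehicle. That call was lost when only the groups compared were fitted (edgeR adjusted p = 0.0674).

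The rises at 18 h were at +29.8, +80.8, +81.8 and +139.8 kb. The +139.8 kb region had 6.02, 2.86 and 4.85 CPM with 10 nM and 1.4, 1.31 and 1.46 CPM with 0.1 nM, against 1.25, 1.13 and 1 CPM with vehicle, a rise of 4.08-fold (2.03, SE 0.35, edgeR adjusted p = 0.00025). The +81.8 kb region had 5.25, 5.56 and 4.01 CPM with 10 nM and 2.04, 2.21 and 2.33 CPM with 0.1 nM, against 1.38, 2.52 and 1.71 CPM with vehicle, a rise of 2.66-fold (1.41, SE 0.26, edgeR adjusted p = 0.000601). In both, 10 nM stood above all other libraries, and in the second 0.1 nM overlapped with vehicle. Its close neighbour at +80.8 kb, at 100920108 to 100920257, had 1.52, 1.23 and 1.68 CPM with 10 nM and 0.394, 0.415 and 0.486 CPM with 0.1 nM, against 0.690, 0.514 and 0.530 CPM with vehicle. Its rise of 2.53-fold (1.34, SE 0.44, edgeR adjusted p = 0.0372) kept its call only without replicate 2 of 10 nM among the 6 fits that left out a library, with edgeR adjusted p of 0.0685 to 0.114 in the other fits. The +29.8 kb region rose 2.14-fold (1.10, SE 0.28, edgeR adjusted p = 0.00836) and averaged 4.68 ± 1.11 CPM with 10 nM and 2.10 ± 0.850 CPM with 0.1 nM, against 2.19 ± 0.359 CPM with vehicle (SD, n = 3 each). The +142.1 kb region averaged 1.72 ± 0.802 CPM with 10 nM and 0.880 ± 0.265 CPM with 0.1 nM, against 0.961 ± 0.202 CPM with vehicle, and was not called at 18 h (0.82, edgeR adjusted p = 0.195).

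With 0.1 nM R5020, 1 region of the locus was called against vehicle, at 18 h, in the main fit, which pairs no libraries. A fit with a term for replicate number called more regions of the locus lower at 18 h. In that comparison 6 of 6 libraries correlated best with their own number (r = 0.448, 0.098 and 0.456). At 6 h edgeR called 0 of 42 regions in either direction, with 11 below an unadjusted p of 0.05, all of them lower, and DESeq2 called 1 lower. Over all tested regions edgeR called 0.949% higher and 0.241% lower at that dose and time, and DESeq2 called 1693 regions higher and 670 lower. The median of the 42 was -0.45, with 36 values below 0 (85.7%), and all 23 regions inside the gene were below 0. Over all tested regions the median was -0.04 with 54.5% below 0, and over the 5000 strongest -0.08 with 74.2% below 0. The libraries of 0.1 nM lay below all vehicle libraries at 12 of 42 regions, where 6.67% of all tested regions separated that way, and above them at 2, where 6.91% did. At +104.6 kb the difference at 6 h was -1.05 (edgeR adjusted p = 0.093) and at +102.5 kb -0.99 (edgeR adjusted p = 0.205).

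At 18 h the called region was +104.6 kb, which fell 2.70-fold with 0.1 nM (-1.43, SE 0.31, edgeR adjusted p = 0.0144), where 0.698% of all tested regions were called lower and 1.74% higher. Its call was lost without replicate 1 of 0.1 nM (edgeR adjusted p = 0.110), replicate 2 of 0.1 nM (edgeR adjusted p = 0.0584), replicate 2 of vehicle (edgeR adjusted p = 0.0533) or replicate 3 of vehicle (edgeR adjusted p = 0.0692). At +102.5 kb the 0.1 nM difference was -1.23 (edgeR adjusted p = 0.0612). The median of the 42 was -0.38, with 34 values below 0 (81%), and 22 of the 23 regions inside the gene were below 0. Over all tested regions the median was -0.01 with 50.5% below 0, and over the 5000 strongest -0.18 with 89.6% below 0. The groups separated with 0.1 nM lower at 12 regions, where 7.56% of all tested regions did, and higher at 1, where 8.83% did. Values of both doses rest on the same vehicle libraries and are given side by side.

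**Figure D4:**
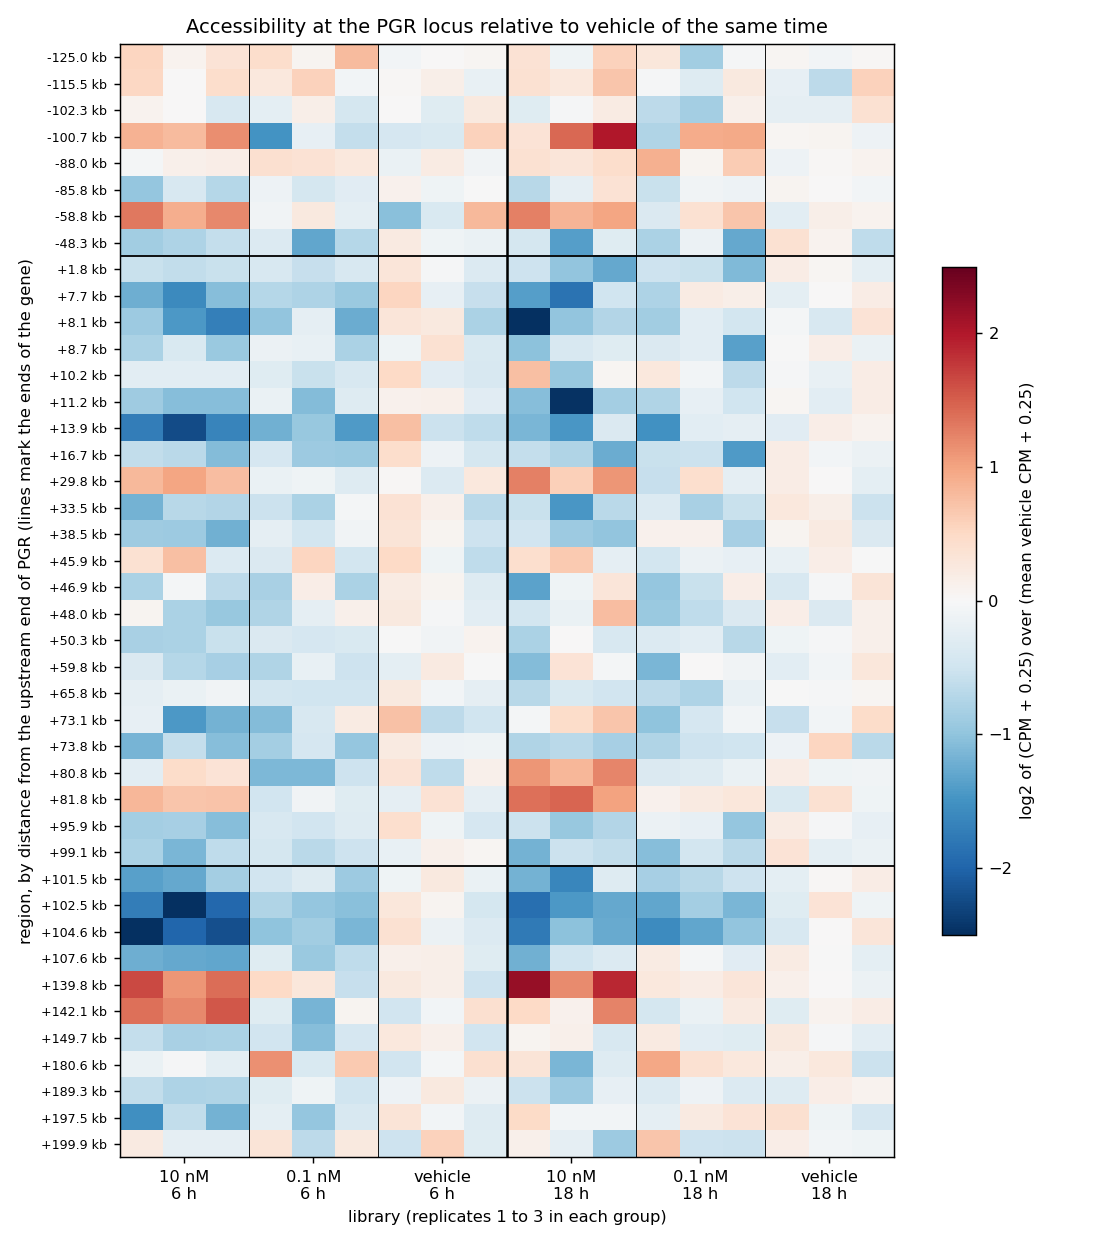
Log2 ratio of each library's CPM to the mean vehicle CPM of the same time, with 0.25 added to both, for the 42 regions ordered from upstream (top) to downstream (bottom) and the 18 libraries by group. Blue is lower and red higher than vehicle, and lines mark the gene ends. The rows at +102.5 and +104.6 kb are blue in all 12 R5020 libraries, and the row at +139.8 kb is red in all 6 libraries of 10 nM.

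Set directly against each other at 6 h, the doses differed at 9 regions, with 6 higher and 3 lower at 10 nM, where 15.1% of all tested regions were called higher and 5.25% lower. The libraries separated at 9 regions with 10 nM higher and at 10 with 10 nM lower, against 22.7% and 18.3% of all tested regions. The +142.1 kb region stood 4.15-fold above its 0.1 nM level with 10 nM (2.05, SE 0.42, edgeR adjusted p = 0.00122). The upstream region at -100.7 kb, at 101101558 to 101101874, was 4.58-fold higher (2.19, SE 0.64, edgeR adjusted p = 0.0173). It had 1.64, 1.56 and 2.08 CPM with 10 nM and 0.118, 0.656 and 0.440 CPM with 0.1 nM, against 0.525, 0.552 and 1.29 CPM with vehicle, and 10 nM lay above all other libraries. Its call was lost without replicate 1 of 0.1 nM (edgeR adjusted p = 0.0927), replicate 3 of 0.1 nM (edgeR adjusted p = 0.0506) or replicate 3 of 10 nM (edgeR adjusted p = 0.0567), and with that percentage in the fit (1.02, edgeR adjusted p = 0.177). The +29.8, +80.8, +81.8 and +139.8 kb regions were also higher with 10 nM, by 2.17-fold to 2.83-fold. The +80.8 kb region, at the upper end of that range, kept its call in 2 of 6 fits that left out a library, and the other 3 kept theirs in all 6. Lower with 10 nM were +102.5 kb (-1.40, SE 0.34, edgeR adjusted p = 0.00568), +104.6 kb (-1.40, SE 0.30, edgeR adjusted p = 0.00222) and +38.5 kb (-0.79, SE 0.26, edgeR adjusted p = 0.0367), the last with its call kept in 1 of 6 fits that left out a library.

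At 18 h the doses differed at 4 regions, all higher with 10 nM, where 6.67% of all tested regions were called higher and 4.22% lower. These were +29.8, +80.8, +81.8 and +139.8 kb, each of which was also called at 6 h. The +80.8 kb region stood 3.44-fold above its 0.1 nM level with 10 nM (1.78, SE 0.47, edgeR adjusted p = 0.0164) and the +139.8 kb region 3.33-fold higher (1.74, SE 0.35, edgeR adjusted p = 0.0022). The libraries of the doses separated with 10 nM higher at 7 regions and lower at 2, where 12.8% and 9.2% of all tested regions did. No region was called lower by edgeR, with 4 lower at an unadjusted p under 0.05. DESeq2 called 1 lower at the locus and 6471 lower over the whole table. At +104.6 kb the difference between the doses was -0.08 (95% interval -0.81 to 0.65). The +80.8 kb call was lost without replicate 1 (edgeR adjusted p = 0.0793) or replicate 2 of 0.1 nM (edgeR adjusted p = 0.0581). The number of rises was 2 without replicate 1 of 0.1 nM, and 2 when only the groups compared were fitted.

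Time changed no region of the locus beyond the test's threshold. Vehicle at 18 h against vehicle at 6 h gave 0 calls of 42 by edgeR, with 5 at an unadjusted p under 0.05, and 0 by DESeq2, where 0% of all tested regions were called. The vehicle libraries of 18 h lay below those of 6 h at 6 regions and above them at none, where 4.39% and 5.12% of all tested regions separated in those directions. The median difference was -0.18. The test of whether the 10 nM response differed between times also gave 0 calls by edgeR, where 0.00151% of all tested regions were called. Without both libraries that lay apart, that test called 83 regions lower over the whole table. In edgeR, 2 of the 42 regions had an unadjusted p under 0.05. DESeq2 gave 0 calls at the locus, and called 13 regions higher and 234 lower over the whole table. Among those 2 regions was +104.6 kb, where the change from vehicle was less negative at 18 h (difference 0.94, edgeR adjusted p = 0.875). For 0.1 nM the same test gave 0 calls by edgeR and DESeq2, with none at an unadjusted p under 0.05, where 0% of all tested regions were called.

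The 8 upstream regions, between -125.0 and -48.3 kb, gave no call against vehicle at either dose or time. Over all tested regions, rises with 10 nM made up 16.7% at 6 h and 12.8% at 18 h. The shares of falls were 8.42% and 7.56%. For 0.1 nM the larger share was that of rises, 0.949% and 1.74%. With only 8 regions, a lack of calls does not show that the upstream side was unresponsive. The 10 nM values of these 8 regions ran from -0.79 to 1.75 at 6 h and from -0.69 to 1.75 at 18 h. The region at -58.8 kb, at 101059706 to 101059853, had the highest of these values at both times but few counts. It is outside the naming rule and was chosen after its values were seen. It had 1.03, 0.712 and 0.937 CPM with 10 nM and 0.236, 0.358 and 0.183 CPM with 0.1 nM, against 0, 0.147 and 0.648 CPM with vehicle at 6 h. The vehicle library with no count there allows up to 0.315 CPM, taking 3 counts as the limit for a count of 0, which covers counting error only. RefSeq, in GRCh38.p14, lists PGR-AS1, an antisense RNA, at the start side of PGR and TRPC6, a calcium channel gene, further upstream. The regions were assigned to no gene.

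The rest of chromosome 11, 8392 regions, gave 14.6% higher and 7.73% lower with 10 nM at 6 h, and 11.3% and 6.57% at 18 h. In the 1 Mb below the window, 7 of 39 regions were called higher and 1 lower at 6 h, and 7 and 3 at 18 h. In the 1 Mb above it, 14 of 62 were called higher and 12 lower at 6 h, and 9 and 12 at 18 h. Falls there made up 19.4% of regions at each time, and below the window 2.56% at 6 h and 7.69% at 18 h. The locus had 40.5% falls at 6 h but 21.4% at 18 h, the latter close to the share in the 1 Mb above. Over all tested regions the shares of falls were 8.42% and 7.56%. These are counts and shares set side by side, with no test of the difference. At the edges of the window, the last region inside on the low side, at 100801004 to 100801148, had -0.14 with 10 nM at 6 h and -0.28 at 18 h, and the first outside, at 100789448 to 100790270, had 0.97 and -0.13. On the high side the last inside, at 101125781 to 101126180, had 0.36 and 0.33, and the first outside, at 101163161 to 101163879, had -3.10 and -2.79.

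Over the 6 group means, the summed CPM of the 23 regions inside the gene was compared with 70286 regions elsewhere that had a mean log2 CPM of at least 1. The most similar by Pearson correlation were on chromosome 8 at 102619612 to 102620524 (r = 0.998), on chromosome 8 at 59634306 to 59634798 (0.9975) and on chromosome 10 at 119540 to 120447 (0.997). The first had 18.1, 18.9 and 36.2 CPM with 10 nM, 0.1 nM and vehicle at 6 h, and 12.3, 13.4 and 29.6 CPM at 18 h. Of the 70286 regions compared, 1417 reached a correlation of 0.95, and all points share the same libraries and scaling. The promoter region weighs heavily in the sum inside the gene. Its mean exceeded that of the other regions inside the gene together in every group, with 84.2 against 53.4 CPM for 10 nM at 6 h.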

How the data were processed

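The deposited table holds raw read counts per region for 18 Omni-ATAC-seq libraries, made by the authors without normalization; columns were assigned to samples through their titles. BWA, MACS2 and hg19 come from the submitters' processing notes. Versions, read filters, any shift for Tn5 insertion and the merging of peaks were not given in the sources used here, nor was whether starts count from 0 or 1. A list drawn from peaks can miss regions open in few libraries.

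The test was edgeR's (version 4.0.16, R 4.3.3). The function filterByExpr (minimum count 10, minimum total 15) kept 132304 regions, TMM scaled the libraries, and glmQLFit and glmQLFTest ran in 1 fit of 18 libraries with 12 residual degrees of freedom. P-values were Benjamini-Hochberg adjusted over all tested regions. Standard errors are the log2 fold change over the square root of F, and 95% intervals use 12 degrees of freedom. Replicate pairs differed beyond sampling noise (chi-square per degree of freedom 3.34 to 28.2). Same-numbered replicates deviated together between the doses at 18 h (r = 0.599, 0.192 and 0.454) and between the vehicle groups (0.317, 0.121 and 0.446), a pairing seen in the data and not stated in the labels; no other comparison met the limit of 0.1 in every pair.

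The locus, lists and tests were chosen with earlier results of these data known. Regions named in full are the promoter region, the 3 of highest CPM, up to 3 called rises and falls for each dose against vehicle, and up to 2 for the other comparisons. Others named were chosen after their values were seen. Alternatives were library totals, edgeR's RLE scaling in place of TMM, the Wald test of DESeq2 1.42.0, no filter and a replicate block. Further alternatives were a share covariate, fits of the compared groups, stricter thresholds and leaving libraries out. The steps were tested on simulated counts with the same spread for every region. Those had no paired or outlying libraries and no shift of the strongest regions, so the test does not cover these features of the data.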

Additional observations from a re-analysis of the deposited data

How the results depend on the processing

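Counts of called regions among the 42 moved with the processing as follows, lower calls being falls. For 10 nM at 6 h, the 4 rises became 2 with the share covariate, 2 at an adjusted p under 0.01 and 2 at a change of at least 2-fold. The 17 falls became 10 with library totals alone, 9 without both libraries that lay apart (chosen after seeing the data), 6 under 0.01, 10 at 2-fold, and 5 to 16 leaving out 1 library. For 0.1 nM at 6 h, the 0 falls became 1 with DESeq2, 1 with the replicate block and 2 with the covariate. For 10 nM at 18 h, the 9 falls became 2 with the compared groups alone, 3 under 0.01, 5 at 2-fold and 4 to 8 leaving out 1 library. For 0.1 nM at 18 h, the 1 fall became 2 with library totals, 2 with DESeq2, 4 with the block, 3 with the covariate, 3 without both libraries, 0 under 0.01, and 0 to 1 leaving out 1 library. Between the doses at 18 h, the 4 rises became 2 with the compared groups alone, 2 under 0.01 and 2 to 4 leaving out 1 library, and the 0 falls became 1 with DESeq2, 1 with the covariate and 0 to 1 leaving out 1 library. The cause was not tested; stricter thresholds call fewer by construction.

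The replicate block left the counts of both comparisons in which numbers paired libraries as they were (4 and 0 between doses at 18 h, 0 for vehicle). In the others, at least 1 same-numbered pair stayed under the limit of 0.1, and the block gave 20 falls for 10 nM at 6 h and 13 at 18 h. There, 2 to 6 of 6 libraries correlated best with their own number. It was 6 of 6 for 0.1 nM against vehicle at 18 h (r = 0.448, 0.098 and 0.456). For 10 nM against vehicle it was 2 of 6 at 6 h and 4 of 6 at 18 h, so some pairing at 18 h remains possible. Of 322 values for named regions under alternatives, 286 kept direction and side of the threshold, 26 lost a call, 9 gained one and 1 reversed: the promoter region for 10 nM at 6 h, 0.015 with the covariate. Library totals in place of TMM moved the median of all regions for 10 nM at 18 h to 0.17, against 0.01. Regions under 1 CPM are limited by depth.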
